A study of Homo sapiens with 8 samples.

Results

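The 4 lentiviral RNA-seq libraries of a series of 8 were compared with its 4 plasmid libraries, across all genes. The cells were KYSE70 and KYSE450, established human esophageal squamous cell carcinoma lines, both at passages 5 to 10. In the lentiviral arm, cells were infected with lentivirus that had been packaged in HEK 293T cells, and carried either a control shRNA (knockdown control) or an shRNA against the long noncoding RNA NMR (knockdown). In the plasmid arm, cells were transfected by Lipofectamine 3000 with a PCDNA3.1 vector, as a control (overexpression control) or to overexpress NMR (overexpression). Each of these groups held 1 library per line, so each arm held 1 control and 1 treated library of each line. Libraries were assigned to an arm by their titles and the treatment protocol. Delivery by virus or by lipid, culture time and any sequencing batch cannot be told apart here, because each goes with the arm. In the treated libraries the manipulation of NMR, knockdown or overexpression, goes with the arm too. The level of NMR itself was not analysed here, because the sources used here do not tie the name to a gene identifier.

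A lentiviral vector enters a cell as a particle, is reverse transcribed and integrates into the genome, whereas a transfected plasmid reaches the nucleus as DNA and is diluted as cells divide. Cells sense foreign nucleic acids through RNA and DNA receptors that lead to interferon and NF-kB signalling. The integrated stress response is a separate program in which amino acid shortage, unfolded proteins, heme loss or double-stranded RNA slow translation and raise the transcription factor ATF4, and hypoxia-inducible factors switch on genes of glycolysis and blood vessel growth when oxygen is short.

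Values were taken as FPKM, read counts scaled by exon length and by library size. Differences are lentiviral minus plasmid on the scale log2(FPKM + 1), which understates changes of low genes. Whole reads recovered from the steps in the FPKM values came to 26401805 to 37937856 per library. Among libraries of the same line and arm the correlation of log2(FPKM + 1) was 0.970 to 0.996, against 0.949 to 0.977 between arms of a line. The KYSE70 knockdown library stood apart: mitochondrially encoded genes made up 8.63% of its FPKM, against 3.84% to 5.75% in the other libraries, and ribosomal protein genes made up 6.39%, against 8.69% to 14.1%. All 9 squamous markers had a mean of at least 1 FPKM. Of 9 markers of HEK293 cells, 2 had a mean of at least 1 FPKM, NEFL and NEFM, and SOX11 was at 0 in every library. The HEK293 markers summed to 0.879 to 259 FPKM in the plasmid arm and 1.15 to 129 FPKM in the lentiviral arm, with the high sums in KYSE70 in both arms. Of 7 fibroblast markers 2 had a mean of at least 1 FPKM, COL1A1 at 20.7 to 37.0 FPKM and COL3A1, and the 7 summed to 27.1 to 37.5 FPKM in the plasmid arm and 32.3 to 52.3 FPKM in the lentiviral arm. Of 3 endothelial markers VWF did. None of 7 immune and blood markers and none of 5 columnar markers did, although in longer lists 1 of 15 blood and immune genes passed this filter and was higher with lentivirus, by 0.68, and 3 of 14 columnar genes passed it with none called. The part of other cells in the results was not tested.

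Many genes differed between the arms in both lines. In the lentiviral arm PTGS2, SAT1, IER3, PDK1 and NDRG1 were higher and FOXQ1, ADI1 and NCOA5 were lower, in control and treated libraries alike. Of 14311 genes with a mean of at least 1 FPKM, 2055 (14.4%) passed limma's test of the arm with cell line as a block at a Benjamini-Hochberg adjusted p under 0.05, 1432 (10.0%) higher and 623 (4.35%) lower in the lentiviral arm. The smallest adjusted p was 0.00142. The split between higher and lower depended on scaling: it was 1071 and 904 with median-ratio scaling, 943 and 894 after quantile normalization, and 1222 and 1286 with the trend on GC content and exon length removed. Of the called genes, 2039 had 1 sign in all 4 matched differences, which set the knockdown control against the overexpression control and the knockdown against the overexpression library in each line. Among all 14311 genes tested, 3379 were above 0 and 1867 below 0 in all 4. The arm test favours such genes, so a high share among the called genes follows from how they were chosen. A difference of at least 1 in size, a doubling or halving on this scale, was seen in all 4 matched differences for 57 genes higher (0.398% of those tested) and 4 lower (0.028%). Without a given library the number called ranged from 484 to 2504. It fell to 602 without the KYSE70 overexpression control, 484 without the KYSE450 overexpression control, 576 without the KYSE70 overexpression library, 1030 without the KYSE450 overexpression library and 1029 without the KYSE450 knockdown control, and it was 1249 without the KYSE450 knockdown library.

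In the sentences below, values of a line and arm are given for the control and then the treated library. The SE is from a fit without a term for treated or control status, so it is not the spread of replicates. PTGS2, the inducible cyclooxygenase that starts prostaglandin synthesis, was at 0.81 and 0.893 FPKM in the plasmid arm and 9.34 and 14.1 FPKM in the lentiviral arm of KYSE70, and at 0.827 and 0.766 against 20.6 and 9.57 FPKM in KYSE450. Every lentiviral library was above every plasmid library (difference 2.91 ± 0.23 SE, n = 4 against 4, limma adjusted p = 0.00142). SAT1, which acetylates spermidine and spermine, was at 71.1 and 75.8 against 334 and 433 FPKM in KYSE70 and at 11 and 15.8 against 154 and 110 FPKM in KYSE450. The arms of each line did not overlap (2.78 ± 0.21 SE, limma adjusted p = 0.00142). IER3, an early response gene that NF-kB and ERK signalling induce, was at 71.6 and 70.6 against 239 and 225 FPKM in KYSE70 and at 34.3 and 35.6 against 271 and 317 FPKM in KYSE450. The difference of 3.03 in KYSE450 exceeded that of 1.69 in KYSE70 (limma adjusted p of the interaction = 0.0124).

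PDK1, the kinase that holds pyruvate back from the mitochondrion, was at 5.12 and 4.81 against 17.1 and 25.8 FPKM in KYSE70 and at 6.58 and 6.12 against 21.9 and 18.9 FPKM in KYSE450. The difference was 1.71 ± 0.16 SE (limma adjusted p = 0.00148). NDRG1, a stress and hypoxia-responsive gene, was at 70.1 and 93.0 against 196 and 462 FPKM in KYSE70 and at 12.5 and 25.6 against 103 and 195 FPKM in KYSE450. Here the treated library was the higher of its pair in both arms and lines, and the arms still did not overlap. The other coding genes that led the higher side were COL5A2, a chain of type V collagen, PHLDA1, GYLTL1B, a glycosyltransferase of dystroglycan, RCN3, a calcium-binding protein of the endoplasmic reticulum, RCOR2, TRIB3, a pseudokinase induced by ATF4, and SYNGR3, a synaptic vesicle protein, with differences of 1.69 to 2.44. TRIB3 varied within the lentiviral arm of KYSE450, at 11.6 and 14.9 against 157 and 41.7 FPKM. Among noncoding genes, LINC00173 was at 4.66 and 4.29 against 22.2 and 26.0 FPKM in KYSE70 and at 0.307 and 0.521 against 4.05 and 8.1 FPKM in KYSE450, and MIR210HG, the host of the hypoxia-induced miR-210, and DLGAP1-AS2 were higher by 1.51 and 1.84. DLGAP1-AS2 is an antisense gene, and no strand setting of the counting is given in the sources used here.

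On the lower side FOXQ1, a forkhead transcription factor, was at 24.4 and 34.5 FPKM in the plasmid arm and 8.23 and 8.29 FPKM in the lentiviral arm of KYSE70, and at 84.6 and 94.4 against 10.0 and 13.5 FPKM in KYSE450. All 4 lentiviral libraries were below all 4 plasmid libraries (-2.27 ± 0.24 SE, limma adjusted p = 0.00235). ADI1, an enzyme of methionine salvage, was at 36.4 and 36.2 against 12.8 and 12 FPKM in KYSE70 and at 18.1 and 16.3 against 4.86 and 6.6 FPKM in KYSE450. Its difference was the same size in both lines, -1.48 and -1.45. NCOA5, a nuclear receptor coactivator, was at 32.5 and 34.8 against 14.4 and 11.7 FPKM in KYSE70 and at 31.2 and 28.3 against 11.5 and 9.61 FPKM in KYSE450. The other coding genes were C1orf53, SPR, the last enzyme of tetrahydrobiopterin synthesis, BAG1 and DNAJA1, both partners of HSP70 chaperones, H2AFX, the histone marked at DNA breaks, AVEN, TXNRD2, the mitochondrial thioredoxin reductase, PRR15 and PMF1, a kinetochore protein, with differences of -1.0 to -1.44. The noncoding genes HNRNPA1P33, RP11-1148L6.5 and RP11-426A6.7 were lower by differences of -1.38, -1.13 and -0.99. HNRNPA1P33 is a pseudogene that can share reads with HNRNPA1 and is uncertain. RP11-1148L6.5 and RP11-426A6.7 are antisense genes, for which the same limit on strand holds as for DLGAP1-AS2.

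**Figure D1:**
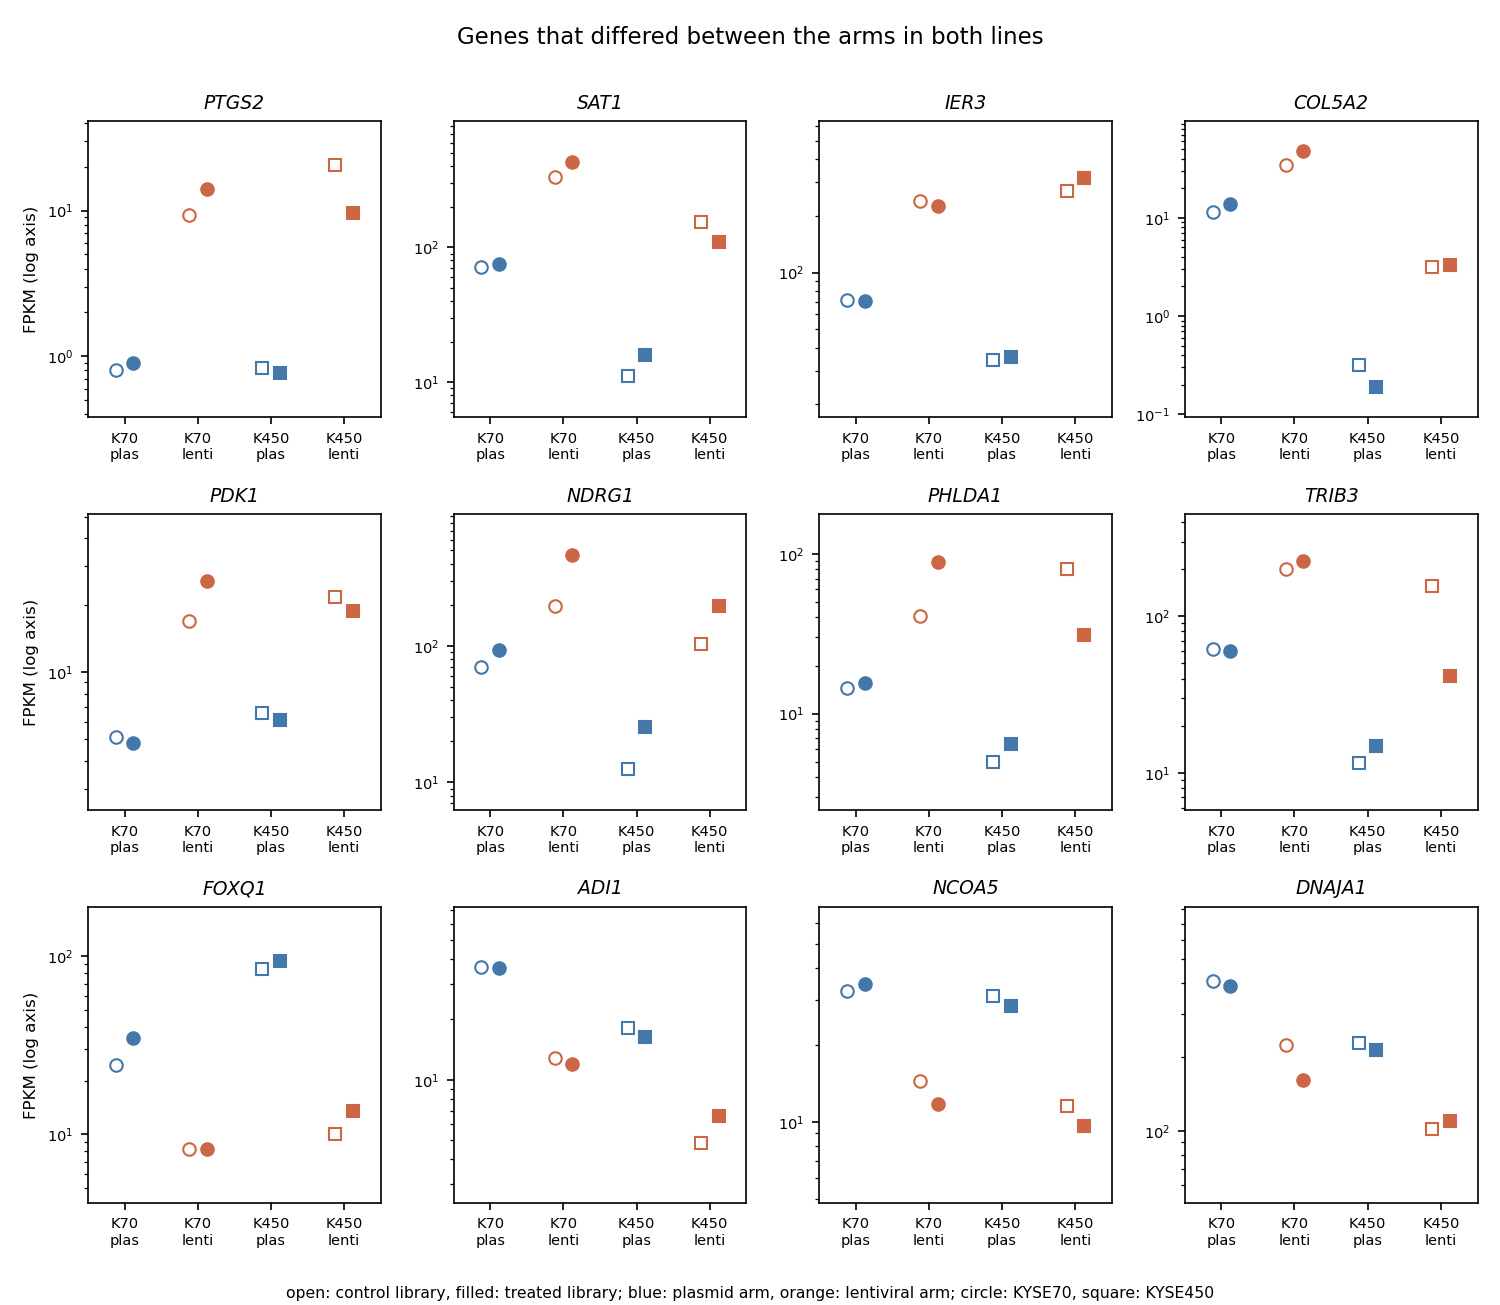
FPKM of 12 genes in each library (log axis), by line and arm, with control libraries open and treated libraries filled. In each of the first 8 panels the lentiviral libraries of a line lie above its plasmid libraries, and in FOXQ1, ADI1, NCOA5 and DNAJA1 they lie below.

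No gene passed the test of whether the arm difference changed between control and treated libraries (limma, 0 of 14311, 0.0%, with 223 at an unadjusted p under 0.05, and 0 with 228 by voom on recovered reads). This does not show that the differences were equal. Over all genes, the control and treated differences had a Spearman correlation of 0.619 in KYSE70 and 0.733 in KYSE450 across the 14311 genes, which are not independent. The arm differences of the lines had one of 0.301. The treated libraries of KYSE70 differed most between the arms, with 2014 genes at least 2-fold apart, against 871 for the controls of that line, and 742 and 1134 for the treated and control libraries of KYSE450. A treated pair sets knockdown against overexpression of NMR, which cannot be told apart from the arm there. The KYSE70 pair also holds the library that stood apart. That library was at least 2-fold from its own control in 775 genes, against 33 between the plasmid libraries of KYSE70.

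The genes were next grouped by pathway. The counts of each list stand beside 10.0% higher and 4.35% lower over all genes tested. Of 32 measured genes of the integrated stress response, 18 were higher and none lower, with a median difference of 0.96 against 0.07 over all genes tested. The median of this list was 1.12 in the control and 0.67 in the treated libraries. ASNS, which makes asparagine, was at 51.9 and 49.8 against 209 and 239 FPKM in KYSE70 and at 48.0 and 136 against 314 and 194 FPKM in KYSE450. The KYSE450 overexpression library was thus nearer to the lentiviral libraries than its control was. PCK2, SLC7A11, the cystine carrier, and VLDLR were higher by 1.55, 1.16 and 1.19 (limma adjusted p = 0.00944, 0.00944 and 0.00781). CHAC1, which degrades glutathione and was chosen after its values were seen, was at 5.67 and 5.66 against 33.4 and 35.4 FPKM in KYSE70 and at 2.24 and 10.5 against 47.6 and 13.8 FPKM in KYSE450. The unfolded protein response, a neighbouring program of the endoplasmic reticulum, had 4 of 19 genes higher and none lower, with a median of -0.02. These were EDEM1, SEL1L and DNAJB9, which serve degradation and folding in the endoplasmic reticulum, and XBP1, its transcription factor, with differences of 0.63 to 0.85. Without the KYSE70 knockdown library the median was 0.12. With all libraries the medians of the lines were -0.14 in KYSE70 and 0.43 in KYSE450.

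Of 22 measured genes of the hypoxia response, 12 were higher and none lower, with a median of 0.68, and the medians of the lines were 0.61 in KYSE70 and 0.63 in KYSE450. The hypoxia medians were 0.64 in the control and 0.73 in the treated libraries. BNIP3, a mitophagy receptor, was at 22.9 and 21.7 against 56.4 and 47.5 FPKM in KYSE70 and at 19.9 and 16.1 against 60.9 and 53.3 FPKM in KYSE450. Both lentiviral libraries of each line were above both of its plasmid libraries (1.40 ± 0.14 SE, limma adjusted p = 0.00185). MXI1, an antagonist of MYC, and VEGFA, the vascular growth factor, were higher by 1.76 and 1.60. In glycolysis 5 of 21 genes were higher and none lower, with a median of 0.32, 3 of 21 under median-ratio scaling. In the main fit 10.0% of all genes tested were higher. The glycolysis medians of the lines were 0.07 in KYSE70 and 0.46 in KYSE450, against 0.13 and 0.01 over all genes tested. ALDOC and ENO2, isoforms of aldolase and enolase, were higher by 1.71 and 1.48, and PGK1 by 0.57. The ENO2 difference was larger in KYSE450 than in KYSE70 (interaction 1.28, limma adjusted p = 0.0234).

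Of 21 measured cytokines and targets of NF-kB, 10 were higher and none lower, with a median of 1.29, the largest among the lists described here. Of all genes, 10.0% were higher. The NF-kB medians were 1.75 in the control and 0.84 in the treated libraries. NFKB2, the precursor of the p52 subunit, was at 16.2 and 18.3 against 56.6 and 42.5 FPKM in KYSE70 and at 15.8 and 15.1 against 76.5 and 52.2 FPKM in KYSE450. The arms did not overlap in either line (1.71 ± 0.17 SE, limma adjusted p = 0.00199). BIRC3, an inhibitor of apoptosis, was at 0.546 and 0.707 against 4.79 and 2.54 FPKM in KYSE70 and at 1.79 and 1.74 against 31.7 and 19.98 FPKM in KYSE450. NFKBIA, the inhibitor that closes the loop, was higher by 0.79. In this list 9 of 21 genes had a difference that changed between the lines, against 6.88% of all genes tested, and the medians were 0.53 in KYSE70 and 1.97 in KYSE450. Without the KYSE70 knockdown library 14 of the 21 were called. LCN2, an iron-binding defence protein, was at 0.516 and 0.451 against 0.665 and 1.07 FPKM in KYSE70 and at 0.899 and 1.71 against 278 and 149 FPKM in KYSE450 (interaction 6.17, limma adjusted p = 0.00114). IL8, a neutrophil attractant, was at 0.254 and 0.666 against 1.51 and 0.567 FPKM in KYSE70 and at 0.184 and 0.239 against 91.0 and 29 FPKM in KYSE450. TNFAIP3, a brake on NF-kB, was higher in both lines, by 1.54 and 3.94. LCN2, IL8 and TNFAIP3 were chosen after their values were seen.

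ERK output and feedback genes, early response genes and the EGF receptor family were described together because growth factor signalling runs through them. Lists can share genes, as IER3 is called in both the NF-kB and the ERK output list, so their counts are not independent. Of 26 measured ERK output genes, 13 were higher and none lower, with a median of 0.80, where 10.0% of all genes were higher. The ERK medians were 0.92 in the control and 0.51 in the treated libraries. DUSP5, a phosphatase that shuts off nuclear ERK, was at 10.4 and 9.61 against 30.3 and 29.3 FPKM in KYSE70 and at 1.18 and 1.42 against 5.0 and 4.35 FPKM in KYSE450. SPRY1, a feedback inhibitor of receptor signalling, was higher by 1.07. Of 19 early response genes, 7 were higher and none lower, with a median of 0.74, and 12 without the KYSE70 knockdown library. Their medians were 0.75 in the control and 0.38 in the treated libraries. NR4A1, FOS, FOSB and ATF3, all transcription factors, were higher by 1.41, 1.68, 0.84 and 1.56. Of 13 measured receptors and ligands in the EGF family, 4 were higher and none lower, with a median of 0.49, and 2 higher and 1 lower under median-ratio scaling. This list had medians of 1.05 in the control and 0.42 in the treated libraries. ERRFI1, an inhibitor of the receptor, NRG1, HBEGF and TGFA, its ligands or those of its relatives, made up the 4, and EGFR was at 158 and 202 against 141 and 268 FPKM in KYSE70 and at 878 and 852 against 532 and 713 FPKM in KYSE450. AREG, another ligand, was at 4.11 and 5.26 against 11.7 and 4.39 FPKM in KYSE70 and at 1.54 and 2.12 against 40.1 and 15.4 FPKM in KYSE450, and did not pass (limma adjusted p = 0.0523).

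Of 14 glucocorticoid response genes, 6 were higher and none lower, with a median of 0.73, and of 16 circadian clock genes 7 were higher and none lower, with a median of 0.57. Of all genes tested, 10.0% were higher and 4.35% lower. The clock medians were 0.93 in KYSE70 and 0.20 in KYSE450, and 0.40 in the control and 0.66 in the treated libraries. The glucocorticoid medians were 0.51 in KYSE70 and 1.08 in KYSE450, and 0.82 in the control and 0.73 in the treated libraries. PER1, which is in both lists, was at 8.92 and 8.03 against 27.6 and 60.8 FPKM in KYSE70 and at 10.7 and 11.8 against 21.9 and 30.1 FPKM in KYSE450. KLF9 and GLUL, the glutamine synthetase, were higher by 1.25 and 1.49. RORA, NR1D1 and NFIL3, transcription factors of the clock, were higher by 1.44, 1.06 and 1.01. Under median-ratio scaling 4 of the 16 clock genes were called. Of 25 targets of p53, 8 were higher and 1 was lower, with a median of 0.19. The p53 medians of the lines were 0.52 in KYSE70 and -0.01 in KYSE450, against 0.13 and 0.01 over all genes tested. TNFRSF10B, a death receptor, BBC3, which promotes apoptosis, and RRM2B were higher by 1.33, 1.38 and 0.58, and TP53I3 was lower, at -1.11. GADD45A, induced by stress and by p53, was at 102 and 128 against 336 and 154 FPKM in KYSE70 and at 28.2 and 34.7 against 88.4 and 50.8 FPKM in KYSE450. GDF15 did not pass (1.70 ± 0.50 SE, limma adjusted p = 0.0519). The defining targets did not pass either: CDKN1A was at 56.1 and 59.4 against 116 and 98.7 FPKM in KYSE70 and at 11.1 and 34.3 against 26.1 and 14.6 FPKM in KYSE450, and MDM2 had a difference of -0.39 ± 0.22 SE.

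Genes of the antiviral response passed in smaller shares. Of 28 interferon-stimulated genes, 3 were higher and none lower, with a median of 0.19, and the called share was near the 10.0% of all genes. They were UBE2L6, an enzyme of ISG15 conjugation, IRF1 and ISG20, with differences of 1.12, 0.57 and 0.92, and 1 of the 28 was called under median-ratio scaling and 5 without the KYSE70 knockdown library. IFIT1 was at 0.765 and 1.32 against 1.3 and 4.1 FPKM in KYSE70 and at 5.75 and 5.87 against 0.939 and 3.21 FPKM in KYSE450, and did not pass. Of 12 sensors of nucleic acids and their signalling genes, IRF7 was called, at 0.89, with a median of 0.23. Of 14 antiviral restriction factors, 2 were higher, APOBEC3F and TRIM25, with a median of 0.06 that was below 0 under median-ratio scaling and with the GC and length trend removed. Of 16 genes of HLA class I and peptide loading, PSMB9, a subunit of the immunoproteasome, and TAP2, a peptide transporter, were higher, by 1.57 and 0.72, with a median of 0.21. Without the KYSE70 knockdown library 5 of these 16 were called. With all libraries, the counts of the sensor, restriction factor and HLA lists were near the 10.0% of all genes that were higher. Of 13 genes of the small RNA machinery, which shRNAs pass through, none was higher and 2 were lower, where 4.35% of all genes were lower. These were DGCR8 at -0.63 and TNRC6C at -0.62. The median of the list was 0.04, and below 0 under the median-ratio, quantile and GC and length alternatives.

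Genes of the dividing cell and chaperones lay on the lower side. Of all genes tested, 4.35% were lower and 10.0% higher. Of 41 DNA replication genes, 15 were lower and 1 was higher, with a median of -0.35. MCM5, a subunit of the replicative helicase, was at 130 and 136 against 80.4 and 55.9 FPKM in KYSE70 and at 120 and 109 against 47.6 and 53.2 FPKM in KYSE450. FEN1, TYMS and GINS3 were lower, at -0.79, -1.15 and -0.68, and so was UHRF1, chosen after its values were seen, at -1.45. Of 35 mitotic genes, 7 were lower and none higher, with a median of -0.21, 12 were lower without the KYSE70 knockdown library and 15 with the GC and length trend removed. FOXM1, the transcription factor of this program, was at 92.4 and 77.0 against 60.3 and 52.6 FPKM in KYSE70 and at 89.9 and 74.0 against 36.1 and 46.0 FPKM in KYSE450. CCNB1, AURKA and CDC20 were lower, at -0.55, -0.54 and -0.46. Of 15 replication-dependent histone genes, 8 were lower and none higher, with a median of -0.71, and of -0.33 in KYSE70 and -1.10 in KYSE450. These genes form a family of near-identical copies and their counts are uncertain. HIST1H2BK was at 41.0 and 38.0 against 23.1 and 24.0 FPKM in KYSE70 and at 38.2 and 39.3 against 10.5 and 11 FPKM in KYSE450, with a larger difference in KYSE450 (interaction -1.04, limma adjusted p = 0.0188).

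Of 19 heat shock chaperones, 5 were lower and none higher, with a median of -0.39, where 4.35% of all genes were lower. HSPA8, the constitutive HSP70, was at 1991 and 1909 against 803 and 985 FPKM in KYSE70 and at 1149 and 1044 against 413 and 703 FPKM in KYSE450. DNAJA1, its cochaperone, was at 409 and 388 against 225 and 161 FPKM in KYSE70 and at 228 and 214 against 102 and 109 FPKM in KYSE450. HSPB1 was lower, at -0.97, and so was HSPA1A, at -1.05, whose near-identical copy HSPA1B makes its value uncertain. Of 37 nuclear genes of oxidative phosphorylation, SDHC alone was called, at -0.34, although 26 of the 37 were below 0 in all 4 matched differences, against 13% of all genes. Without the KYSE70 knockdown library 4 of the 37 were called and the median moved from -0.34 to -0.15. None of 13 mitochondrially encoded genes was called by limma. Of 24 genes of cholesterol synthesis, 3 were lower and none higher, with a median of -0.18, where 4.35% of all genes were lower. Among the 3, LSS and MVK were at -0.85 and -0.62. Of 26 squamous transcription factors and basal markers, 2 were higher and 3 lower, where all genes gave 10.0% and 4.35%. Without the KYSE70 knockdown library 2 and 7 were called, under median-ratio scaling 2 and 5, and after quantile normalization 1 and 1. TP63, the master regulator of squamous cells, was at 140 and 189 against 218 and 346 FPKM in KYSE70 and at 233 and 307 against 654 and 439 FPKM in KYSE450, while KRT5, a basal keratin, was at 8172 and 10459 against 4156 and 6154 FPKM in KYSE70 and at 14239 and 19246 against 4948 and 7730 FPKM in KYSE450. LAMA3 was higher and JAG2 lower, by differences of 0.86 and -0.78.

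**Figure D2:**
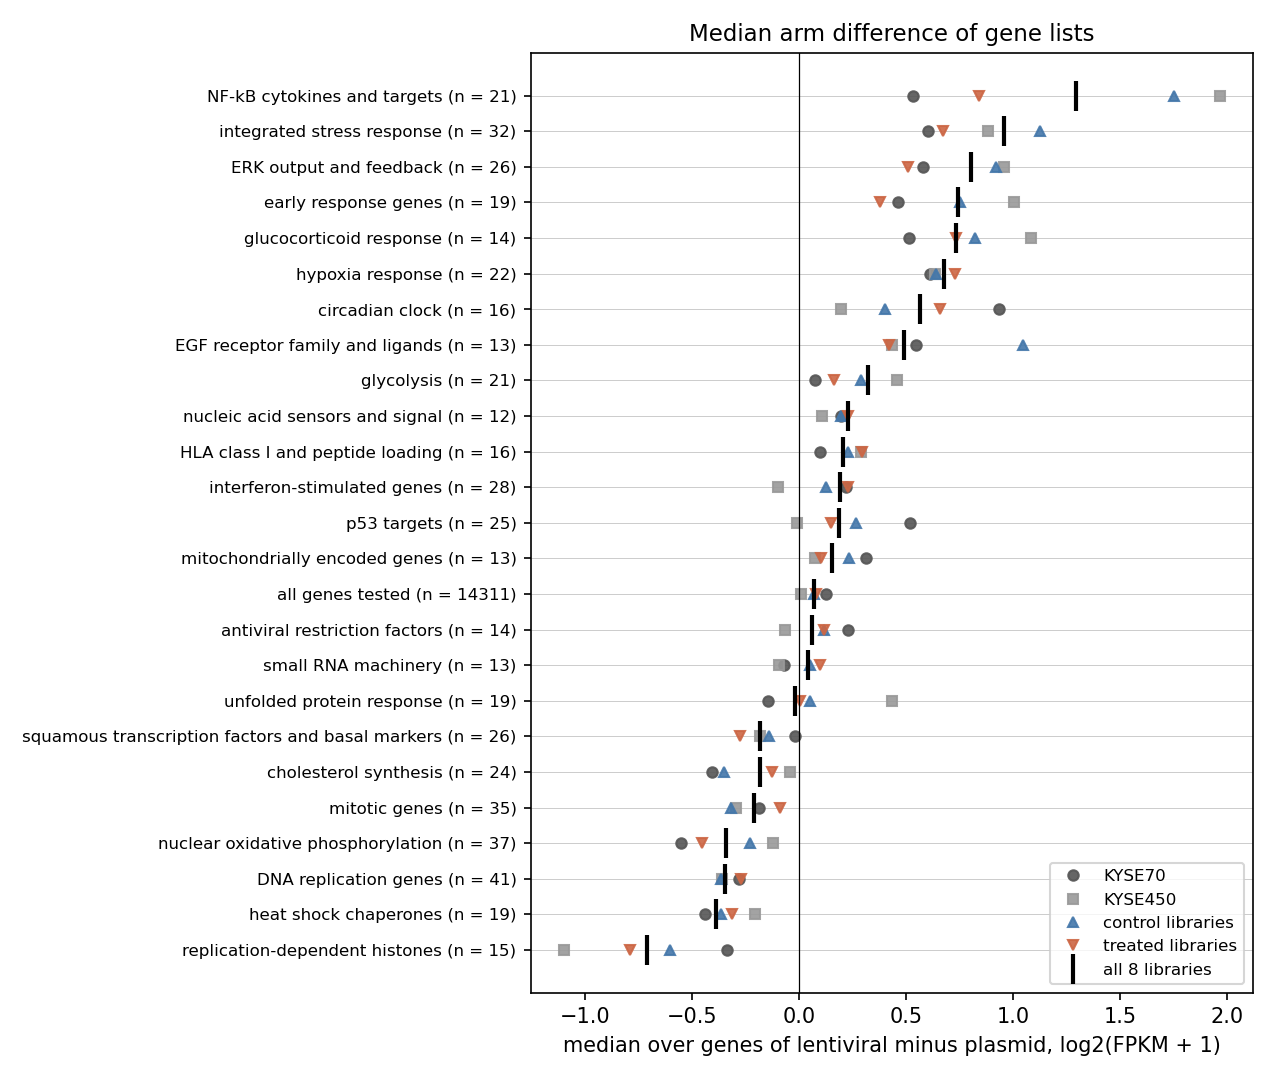
Median over the measured genes of each list of the lentiviral minus plasmid difference, log2(FPKM + 1), in all 8 libraries (bar), each line, the control libraries and the treated libraries. The NF-kB list lies farthest right, at 1.29, and the histone list farthest left, at -0.71, with all genes at 0.07.

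**Figure D3:**
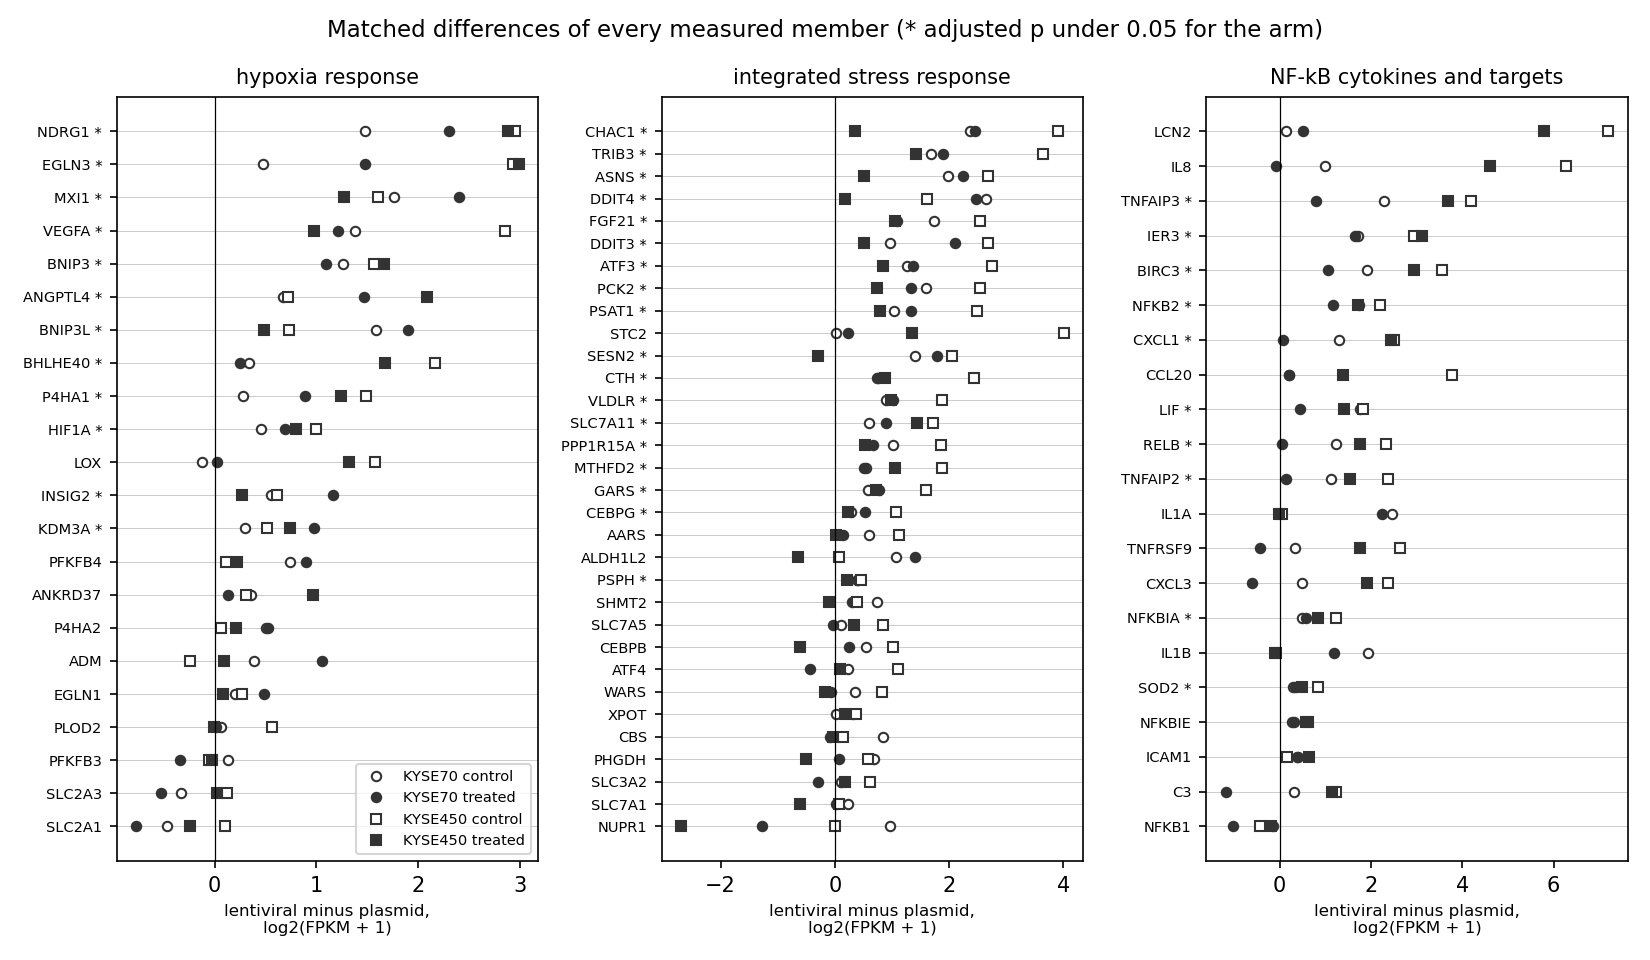
The 4 matched differences, log2(FPKM + 1), of every measured member of the hypoxia, integrated stress response and NF-kB lists, with circles for KYSE70, squares for KYSE450, open symbols for control and filled for treated libraries. Genes with an asterisk were called for the arm, and in the NF-kB list the KYSE450 symbols lie farther right than those of KYSE70 for LCN2 and IL8.

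The promoter of PTGS2, which led the higher genes and is in none of the lists, is shown with those of 1 called gene each from the hypoxia, NF-kB and integrated stress response lists. They are 300 bases, 250 before to 50 after the RefSeq start, on build GRCh38.p14, and capitals mark motif matches on either strand.
PTGS2 (chr1:186680374-186680673, minus strand): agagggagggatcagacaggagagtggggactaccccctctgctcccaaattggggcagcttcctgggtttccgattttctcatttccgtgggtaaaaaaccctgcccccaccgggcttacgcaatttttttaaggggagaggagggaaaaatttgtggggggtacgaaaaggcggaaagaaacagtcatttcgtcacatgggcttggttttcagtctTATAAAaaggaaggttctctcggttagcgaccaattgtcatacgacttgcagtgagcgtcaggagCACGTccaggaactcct
BNIP3 (chr10:131981874-131982173, minus strand): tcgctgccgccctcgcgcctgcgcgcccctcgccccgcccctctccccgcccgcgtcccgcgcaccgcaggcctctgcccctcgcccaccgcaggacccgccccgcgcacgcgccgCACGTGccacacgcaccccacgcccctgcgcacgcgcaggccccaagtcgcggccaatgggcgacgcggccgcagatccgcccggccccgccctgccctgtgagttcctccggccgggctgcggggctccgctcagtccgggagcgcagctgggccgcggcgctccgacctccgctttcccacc
BIRC3 (chr11:102317234-102317533, plus strand): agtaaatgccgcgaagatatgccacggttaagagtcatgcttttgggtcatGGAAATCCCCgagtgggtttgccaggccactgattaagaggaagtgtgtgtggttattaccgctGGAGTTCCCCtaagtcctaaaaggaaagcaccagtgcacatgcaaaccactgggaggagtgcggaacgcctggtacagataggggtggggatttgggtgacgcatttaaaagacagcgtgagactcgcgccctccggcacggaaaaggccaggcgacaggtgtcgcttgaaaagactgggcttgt
ASNS (chr7:97872359-97872658, minus strand): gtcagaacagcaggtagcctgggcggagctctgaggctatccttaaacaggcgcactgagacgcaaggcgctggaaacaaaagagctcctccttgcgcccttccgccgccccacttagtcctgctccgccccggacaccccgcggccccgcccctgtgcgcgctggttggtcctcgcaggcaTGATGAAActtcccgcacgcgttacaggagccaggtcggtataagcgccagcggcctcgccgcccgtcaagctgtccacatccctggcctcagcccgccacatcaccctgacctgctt
In PTGS2 the capitals are a TATA box (TATAAA) and the core of the hypoxia response element (ACGTG, here on the other strand), and in BNIP3 they are 2 overlapping cores. In BIRC3 they are 2 matches to the NF-kB motif and in ASNS a match to the C/EBP-ATF motif (TGATGNAA). Of the genes tested, 9377 had a promoter in the table, and the shares that follow are of genes with one. The hypoxia core was in 9 of 18 measured hypoxia genes and in 26.9% of the 9377. The NF-kB motif was in 9 of 15 genes of its list and in 13.2% of the 9377. The C/EBP-ATF motif was in 6 of 24 genes of the integrated stress response and in 1.56% of the 9377. Among the genes called higher, the motif was in 5 of 9 of the hypoxia list, 4 of 7 of the NF-kB list and 4 of 15 of the integrated stress response list. The lists group genes by known regulation, so these shares are not a test of the arm difference. A match is a description of these letters and not a bound site.

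Other differences depended on the line. CRAT was higher with lentivirus in KYSE70 and not in KYSE450, and ZC3H12A in KYSE450 and not in KYSE70. IL1A was higher in KYSE70 and STEAP1 in KYSE450, and each was under 1 FPKM throughout the other line, too low to judge a difference there. KRT4 and GPC3 were lower with lentivirus in KYSE450 and not in KYSE70. The test of the interaction of arm and line called 984 genes (6.88%), 229 (1.6%) with a higher difference in KYSE450 and 755 (5.28%) with a higher difference in KYSE70. The median interaction over all genes was -0.12, and -0.02 with median-ratio scaling, where the split was 342 and 568. It was 233 and 338 after quantile normalization and 643 and 712 with the GC and length trend removed. Leaving out single libraries gave 36 to 5244 calls, and each of the 8 omissions moved the number by over 1.5 times.

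A gene was taken as seen in 1 line where the arms were at least 1 apart there and the difference in the other line was under 0.3. In KYSE70 this held for 140 genes higher with lentivirus (0.978% of those tested) and 8 lower (0.0559%), of which 120 and 4 passed the interaction test. In KYSE450 it held for 67 higher (0.468%) and 80 lower (0.559%), of which 52 and 67 passed. Some were hardly expressed in the other line, so a difference could not be seen there: 36 of the 120, 1 of the 4, 25 of the 52 and 31 of the 67 were under 1 FPKM in all of its libraries.

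In KYSE70, CRAT, carnitine acetyltransferase, was at 0.974 and 1.2 against 8.8 and 8.77 FPKM, and in KYSE450 at 38.3 and 43.8 against 36.2 and 34.8 FPKM. The lentiviral libraries of KYSE70 stayed below all libraries of KYSE450 (interaction -2.43, limma adjusted p = 0.0019). RIMS3, a synaptic protein, was at 0.889 and 1.13 against 9.68 and 12.5 FPKM in KYSE70 and at 2.1 and 2.43 against 2.22 and 3.22 FPKM in KYSE450. IL1A, the alarmin cytokine, was at 2.18 and 3.56 against 16.6 and 20.7 FPKM in KYSE70 and under 0.1 FPKM throughout KYSE450. KRT16P2, a keratin pseudogene that can share reads with KRT16 and is uncertain, MROH7 and LRRC32, which holds latent TGF-beta at the cell surface, were also under 1 FPKM throughout KYSE450. Lower in KYSE70 were GJB5, a gap junction protein, at 16.4 and 16.2 against 5.55 and 3.99 FPKM, ARMC6, at 39.8 and 44.6 against 18.1 and 11.7 FPKM, ADAMTS1, a metalloproteinase, at 10.3 and 11.7 against 4.04 and 4.27 FPKM, and DRD2, at 26.4 and 24.9 against 11.8 and 7.87 FPKM, which was under 1 FPKM throughout KYSE450. MOBP and S100A2 did not pass the interaction test, and S100A2 was at 720 and 745 against 320 and 82.8 FPKM in KYSE70, with the low value in the library that stood apart.

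In KYSE450, ZC3H12A, an RNase that limits inflammatory transcripts, was at 5.58 in both plasmid libraries against 41.8 and 33.6 FPKM, and in KYSE70 at 6.33 and 7.49 against 6.95 and 6.09 FPKM. The KYSE70 arms overlapped (interaction 2.62, limma adjusted p = 0.00275). STEAP1, a metalloreductase, was at 7.06 and 7.1 against 56.2 and 58.1 FPKM in KYSE450 and under 0.3 FPKM throughout KYSE70. There it was at 0.062 and 0.098 against 0.258 and 0.258 FPKM, too low to judge a difference. EREG, an EGF receptor ligand, was at 2.28 and 3.23 against 58.6 and 14 FPKM in KYSE450. SAA1, an acute phase protein, TENM4 and SGPP2 were higher there too, with interactions of 2.57, 2.56 and 2.44. On the lower side KRT4, a keratin of the mature esophageal lining, was at 80.1 and 72.1 against 1.36 and 3.98 FPKM in KYSE450 and at 3.62 and 4.12 against 2.89 and 7.12 FPKM in KYSE70. FOLR1, a folate receptor, was at 23.4 and 46.5 against 0.284 and 0.369 FPKM in KYSE450. FOLR1, EREG, SGPP2, FAT3 and ANK1 were under 1 FPKM in all libraries of KYSE70, so a difference could not be seen there. GPC3, a cell surface proteoglycan, was at 160 and 177 against 11.7 and 43.2 FPKM in KYSE450 and at 118 and 103 against 99.6 and 147 FPKM in KYSE70. PCDH7, FAT3, both cadherins, and ANK1 were lower there with interactions of -2.87, -3.06 and -3.04.

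**Figure D4:**
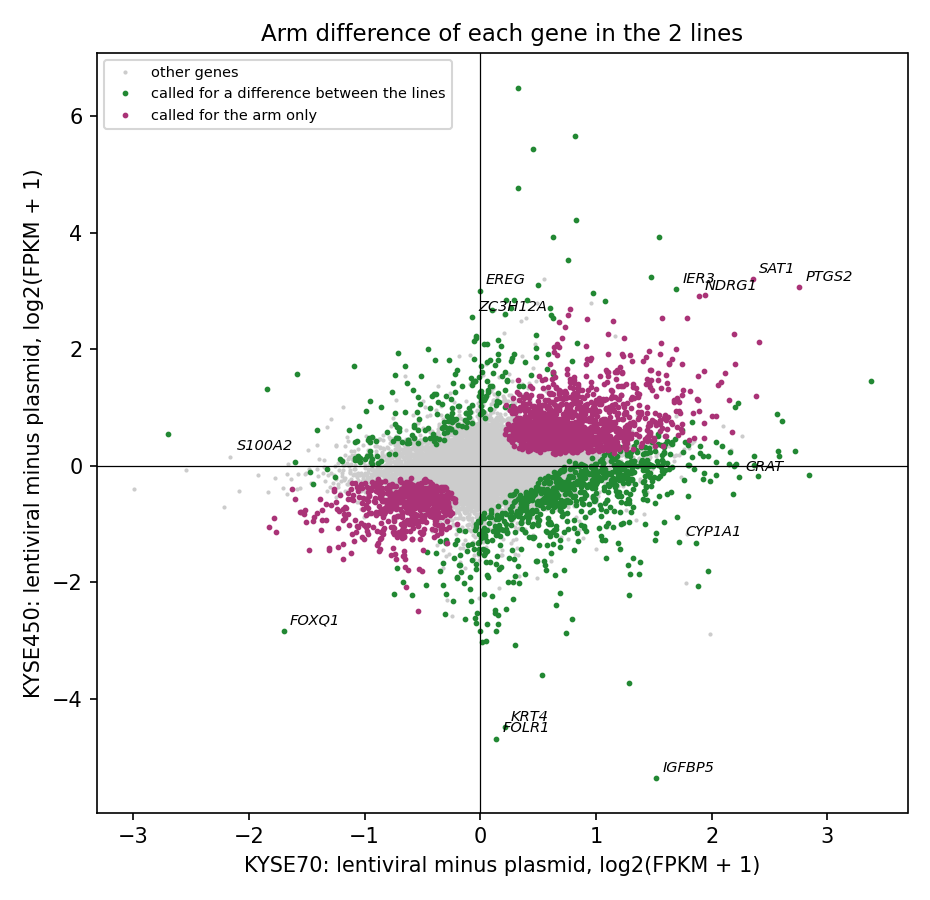
Lentiviral minus plasmid difference of each gene in KYSE70 (x axis) and KYSE450 (y axis), log2(FPKM + 1). Genes called for the arm only lie in the upper right and lower left, and the genes called for a difference between the lines, 93 of which were also called for the arm (IER3 and FOXQ1 among them), lie mostly near the axes and in the other corners.

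**Figure D5:**
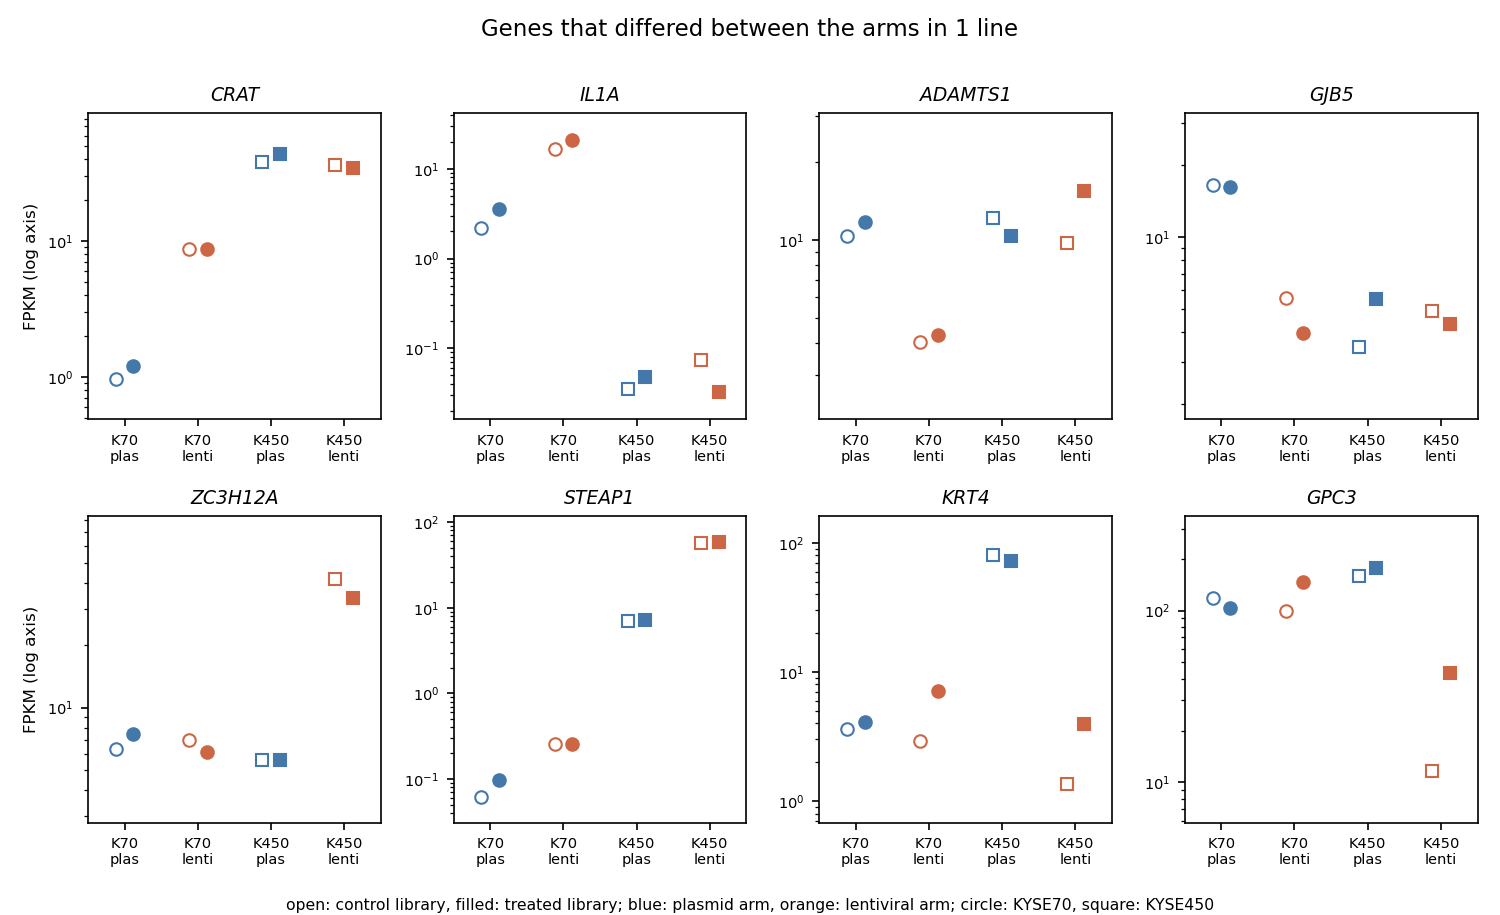
FPKM of 8 genes in each library (log axis), by line and arm, with control libraries open and treated libraries filled. CRAT and IL1A are apart in KYSE70 and ZC3H12A, STEAP1, KRT4 and GPC3 in KYSE450. STEAP1 in KYSE70 and IL1A in KYSE450 are under 1 FPKM in every library.

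Some genes moved in opposite directions. In 548 of the 984 genes the arms were apart in both lines and in opposite directions, and in 52 the gap was at least 0.5 in each line. Among all genes tested 13.6% were apart in this way. The interaction test favours such genes, so a higher share among the 984 follows from how they were chosen. CYP1A1, a target of the aryl hydrocarbon receptor, was at 25.9 and 22.7 against 72.5 and 92.4 FPKM in KYSE70 and at 30.0 and 23.5 against 11.7 and 8.81 FPKM in KYSE450. LRP1, an endocytic receptor, was at 29.9 and 40.2 against 68.5 and 96.7 FPKM in KYSE70 and at 83.6 and 144 against 32.9 and 49.0 FPKM in KYSE450. EPHB3, a receptor for ephrins, had differences of 1.96 and -1.81. These 3 genes were chosen after their values were seen. IGFBP5, a binding protein of insulin-like growth factors, was at 4.63 and 8.87 against 5.92 and 65.2 FPKM in KYSE70 and at 52.8 and 175 against 0.285 and 3.36 FPKM in KYSE450, with the treated library higher than its control in each pair (interaction -6.88, limma adjusted p = 0.0338). Its arms overlapped in KYSE70, and the high value there is from the library that stood apart.

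A few further genes, fixed by name, did not pass the test of the arm. EDN2, an endothelin, was at 2.63 and 3.31 against 4.27 and 34.1 FPKM in KYSE70 and at 10.9 and 17.8 against 0.674 and 7.21 FPKM in KYSE450. TSPAN12, a tetraspanin, was at 214 and 125 against 127 and 491 FPKM in KYSE70 and at 9.91 and 7.68 against 1.86 and 7.84 FPKM in KYSE450. The high KYSE70 values of both are from the library that stood apart. MMP10, a metalloproteinase, was at 31.4 and 79.7 against 16 and 57.0 FPKM in KYSE450 and under 1 FPKM in KYSE70. NSUN2, an RNA methyltransferase, was at 105 and 106 against 106 and 71.5 FPKM in KYSE70 and at 146 and 118 against 149 and 140 FPKM in KYSE450, and BPTF, a chromatin remodeller, had a difference of -0.09 ± 0.11 SE.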

How the data were processed

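RNA-seq of 8 libraries was deposited as scaled values per gene and library, taken here as FPKM. Per the submitters' processing notes, TopHat2 2.0.9, HTSeq 0.6.1 and build hg19 were used. The labels do not say how the values were scaled, and the unit was inferred from the values. Their steps gave whole reads within 0.02 for all 30872 genes above 0 in 2 or more libraries. A fit is easily found for genes seen in few libraries. Such steps arise with any scaling per gene and library, so they do not establish the unit. Genes with a mean of at least 1 FPKM (14311 of 48162 listed) were tested with limma 3.58.1 in R 4.3.3, with a trended prior on log2(FPKM + 1), cell line as the block and Benjamini-Hochberg adjustment. The interactions of arm with line and with treated or control status had fits of their own. Each group holds 1 library per line, and nothing in the labels says that libraries came from separate cultures beyond that. The p-values thus cover the spread among these 8 libraries alone, and that spread may in part be technical. The fit of the arm had no term for treated or control status. Its spread thus also holds any effect of the NMR manipulations and any change of the arm difference between the lines. It is not the spread of replicates. The scripts were tested on simulated data. Replicate numbers name the lines, so same-numbered libraries share a cell line, and libraries of different lines correlated at 0.797 to 0.847, below the lowest value within a line. All value columns were used.

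The arms and the gene lists were chosen with earlier results of these data known, and 24 of 54 lists were picked for description after their results were seen. Genes named for the arm were called, of 1 sign in all 4 matched differences and at 5 FPKM or more in the higher arm, the 12 coding and 3 noncoding genes per direction with the largest smallest matched difference. Genes seen in 1 line were the 6 per line and direction with the largest interaction. From each list the 4 members with the smallest p were named, plus some fixed genes. MMP3 was below the filter. A few genes that the rule names are not reported here. Coordinates and promoter sequences are RefSeq's on GRCh38.p14 and gene types are GENCODE 29's (45342 of 48162 identifiers matched). No coordinates of hg19 were used. Alternatives were other pseudocounts, filters, scalings, priors, thresholds and blocks, voom on recovered reads and leaving out each library.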

Additional observations from a re-analysis of the deposited data

Results flagged for a closer look

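The KYSE450 knockdown control had 27135 genes above 0, apart from the other lentiviral libraries at 25983 to 26095, and it was the deepest library. This kind of gap arises by chance in about 1 in 20 groups. The arm difference changed between the lines for 984 genes by limma's interaction test. Among the genes named here, the difference in KYSE450 less that in KYSE70, log2(FPKM + 1), was above 0 in IER3 1.34, GJB5 1.66, ARMC6 1.35, ADAMTS1 1.33, DRD2 1.27, EREG 3.01, STEAP1 2.63, ZC3H12A 2.62, SAA1 2.57, TENM4 2.56, SGPP2 2.44, IFI16 1.46, UBE2L6 1.08, BIRC3 1.76, ENO2 1.28, HLA-B 1.76, LCN2 6.17, IL8 4.98, TNFAIP3 2.39. It was below 0 in FOXQ1 -1.14, KRT16P2 -3.00, MROH7 -2.56, LRRC32 -2.48, CRAT -2.43, RIMS3 -2.40, IL1A -2.35, FOLR1 -4.82, KRT4 -4.70, FAT3 -3.06, ANK1 -3.04, GPC3 -2.97, PCDH7 -2.87, HIST1H2BK -1.04, HIST1H2BD -1.45, IGFBP5 -6.88, CYP1A1 -3.02, LRP1 -2.63, EPHB3 -3.77.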

How the results depend on the processing

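The 30 genes named for the arm by rank were chosen as called genes with large differences in every matched pair. Their calls were thus favoured to hold. Of all 2055 genes called, 1694 kept their call under median-ratio scaling, 1512 after quantile normalization and 482 without the KYSE450 overexpression control. All 30 kept their direction and call under median-ratio scaling, quantile normalization, removal of the GC and length trend and a pseudocount of 0.1. They also kept both with voom on recovered reads, at the threshold of 0.01 and without any single library. Fits on fewer libraries or without the block kept fewer of these calls: 17 of 30 in the control libraries only, 6 in the treated libraries only, 6 with no replicate block and 0 in KYSE70 only, against 30 in KYSE450 only, with no direction changed. The number called for the arm was 721 with no filter, 281 at the threshold of 0.01, 73 in the control libraries only, 6 in the treated libraries only and 0 in KYSE70 only (4082 at an unadjusted p under 0.05, limma), while the fit of the same size in KYSE450 only called 3073. With no replicate block 10 genes were called against 2055 with the pairing by line, and 575 with the replicate block and a term for each manipulation. Without single libraries it was 484 to 2504. The number called for a difference between the lines was 515 at a mean of at least 5 FPKM, 118 with no filter, 571 after quantile normalization, 53 at the threshold of 0.01 and 36 to 5244 without single libraries. Genes at least 2-fold apart in all matched differences numbered 61, and 142 at a pseudocount of 0.1 and 75 to 121 without single libraries, where fewer differences had to hold. The cause of the other changes was not tested. With the GC and length trend removed 8 of the heat shock chaperones and 6 of the cholesterol synthesis genes were lower, against 5 and 3.

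Differences that changed sign belonged to genes not called for the arm. In KYSE70 only they were 0.089 for BPTF, 1.78 for EDN2, 0.13 for EGFR, -0.071 for IFI16, 0.76 for IFIT1, 1.52 for IGFBP5 and 0.60 for TSPAN12. In KYSE450 only they were -0.0078 for CDKN1A and 0.14 for NSUN2. In the treated libraries only they were -0.23 for CDKN1A, 0.91 for EDN2, 0.076 for EGFR, 0.21 for IFIT1 and 0.99 for TSPAN12, and in the control libraries only 0.36 for MT-CYB and 0.020 for NSUN2. With voom TSPAN12 was at 0.11. Without single libraries they ranged from -1.04 to 0.72 for EDN2, -0.68 to 0.18 for IFIT1, -0.69 to 0.020 for MMP10, -0.17 to 0.087 for NSUN2, -0.72 to 0.31 for TSPAN12.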

Other observations

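The 30 gene lists that were not described one by one cover, among others, lysosomes and autophagy, NRF2 targets, ribosomal proteins, and the WNT, NOTCH and TGF-beta pathways. In the 21 of them with at least 10 measured genes, the median difference between the arms ranged from -0.31 to 0.24, and the share of measured genes called by limma from 0% to 25%, against 14.4% of all genes tested. None of the members was called in 3 of these 21 lists.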
